A study of Homo sapiens with 6 samples.

Results

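MALAT1, NEAT1 and KCNQ1OT1 are long non-coding RNAs that stay in the nucleus. They were found as the 3 of 117001 merged loci of the deposited comparison that name one of these genes, and are 3 of the 24177 genes of the assemblies. Every transcript that overlapped these loci in any library was taken, whether annotated or assembled from the reads. The cells were HEK293, an established human embryonic kidney line grown at 37°C. An aliquot of cells taken during passaging was kept for 30 minutes in a 45°C water bath for each heat shock sample, and control cells were left untreated, with 3 libraries in each group. The time between the water bath and the collection is placed at 30 minutes in the text of the study and is not in the sample labels. RNA was extracted with Trizol, depleted of ribosomal RNA with RiboMinus and prepared with a TruSeq kit, so that RNAs with and without a poly(A) tail could be sequenced. The labels number the libraries and do not say that they came from separate cultures, so the p-values below measure the spread between these libraries, which may be technical.

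MALAT1 collects in nuclear speckles, the bodies where splicing factors are stored. Its 3′ end is not made by polyadenylation: RNase P cuts the precursor beside a small tRNA-like RNA, and a U-rich and an A-rich stretch fold into a triple helix that protects the end. NEAT1 is transcribed from the neighbouring gene and is the scaffold of paraspeckles. Its short form is polyadenylated, while its long form runs on to an end like that of MALAT1 and is the form that builds the paraspeckle. KCNQ1OT1 is an imprinted, unspliced RNA read from the paternal chromosome antisense to KCNQ1, and silences genes around it.

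In hg19, MALAT1 lies at chr11:65265233-65273939 on the plus strand and is annotated as 1 exon of 8707 bases. NEAT1 starts upstream of it, and the gap between the genes is 52221 bases. The annotated short NEAT1 transcript is 1 exon of 3735 bases at chr11:65190269-65194003. The long form in GENCODE ends at chr11:65213011, which leaves 19008 bases that only the long form holds (the long-only part), while the first 3735 bases are shared by both. KCNQ1OT1 is 1 exon of 91671 bases at chr11:2629558-2721228 on the minus strand, within the bounds of KCNQ1, which is read from the plus strand.

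The ends of the transcripts are shown because they tell the short from the long NEAT1 and because the spliced MALAT1 transcripts described below remove one of them. Each line gives the plus strand of hg19, 5′ to 3′. In the last 80 bases of short NEAT1, chr11:65193924-65194003, the capitals mark the poly(A) signal AATAAA. In the last 80 bases of long NEAT1, chr11:65212932-65213011, and in 80 bases near the end of MALAT1, chr11:65273508-65273587, they mark the final 11 bases of long NEAT1, which both genes hold.
NEAT1 short end: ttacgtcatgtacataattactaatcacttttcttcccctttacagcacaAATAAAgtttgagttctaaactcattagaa
NEAT1 long end: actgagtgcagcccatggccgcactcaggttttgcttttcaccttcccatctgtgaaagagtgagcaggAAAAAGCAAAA
MALAT1 A-rich stretch: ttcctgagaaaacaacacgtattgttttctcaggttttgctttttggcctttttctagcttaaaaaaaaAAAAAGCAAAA

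The stretch AAAAAGCAAAA closes long NEAT1 and ends 352 bases before the annotated end of MALAT1, and it occurs 1 more time within MALAT1, at chr11:65265985-65265995. It was present on the plus strand in 0.0322% of the 80-base windows of chromosome 11, and on either strand in 0.0620%. These shares are for single windows, while the stretch was searched over all 8707 bases of MALAT1. They are therefore lower than the share for a region of that length. AATAAA was present on the plus strand in 7.40% of these windows and on either strand in 14.2%. The inverted repeats of heat shock elements, GAANNTTC and TTCNNGAA, which read the same on both strands, were not in the 250 bases before and 50 after the start of any of the 3 genes. One of these patterns was in 13.5% of the 35116 promoters of the same length in RefSeq, whose sequences are of GRCh38.

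Values are FPKM, the fragments of a transcript per kilobase of its length, scaled to the mapped fragments of the library, as Cufflinks computed them for each library. A gene's FPKM is the sum over its annotated transcripts and the assembled transcripts grouped with them. The libraries differed in scale in a way the groups do not explain. The common factor, the median ratio of a library to the others over 983 abundant genes (above 10 FPKM in each library), ran from 0.434 in control replicate 2 and 0.487 in heat shock replicate 3 to 2.13 and 2.32 in heat shock replicates 1 and 2. The relative depth, read from coverage, spanned 1 to 2.03. Control replicates 1 and 2 and heat shock replicate 3 held 141632 to 194489 single-exon transcripts without a strand, against 17304 to 45600 in the other 3 libraries. Both the FPKM as deposited and the FPKM divided by the common factor are given for this reason. Among the heat shock genes listed, the treatment was most visible in DNAJB1, a chaperone gene induced by heat. Divided by the common factor it was 7.81, 11.1 and 9.59 in the controls, against 56.7, 50.2 and 69.8 after heat shock. HSPA6, another heat shock gene, was under 1 FPKM as deposited in every library and was not tested. Of 12 heat shock genes, 11 were tested and 0 were called, with a median log2 difference of 1.20 as deposited and 0.35 divided by the common factor, and 6 had all heat shock libraries above all controls on the second scale, as did 2.01% of all genes tested. The 6 HEK293 marker genes summed to 101 to 272 FPKM in the controls and 133 to 988 in the heat shock libraries. The 7 marker genes of blood, liver, endothelium and fibroblasts summed to 1.59 to 4.33 and 0.425 to 4.04 FPKM.

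MALAT1 was the most abundant of the 3 RNAs in every library, and divided by the common factor its heat shock values lay within the range of the controls. As deposited, the FPKM of MALAT1 was 53.8, 17.3 and 44.5 for controls 1, 2 and 3. It was 106, 129.5 and 21.6 for the heat shock libraries, in the same order. Heat shock replicates 1 and 2 were above every control, and heat shock replicate 3 was below control replicates 1 and 3, so the groups overlapped. The means were 38.5 ± 18.97 and 85.8 ± 56.8 FPKM (SD, n = 3 each). On the log2(FPKM + 1) scale the difference, heat shock minus control, was 0.93 with an SE of 0.98 (limma, adjusted p = 0.710 over 13027 genes). Without heat shock replicate 3 the difference was 1.73, and it was 0.45 without control replicate 2, 0.46 without heat shock replicate 2 and 0.61 without heat shock replicate 1. The median of all genes tested was 0.45 on the same scale.

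Divided by the common factor, MALAT1 was 57.4, 39.8 and 46.5 in the controls, against 49.8, 55.9 and 44.4 after heat shock. No heat shock library was outside the range of the controls. The log2 difference was 0.07 (SE 0.17, limma adjusted p = 0.941), against a median of -0.21 for all genes on this scale, and leaving out single libraries gave -0.05 to 0.21. Its place within the library overlapped between the groups as well. MALAT1 ranked above 96.7% to 97.6% of the genes with a value over 0 in each of the 6 libraries, with controls from 96.7% to 97.6% and heat shock from 96.9% to 97.4%.

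**Figure D1:**
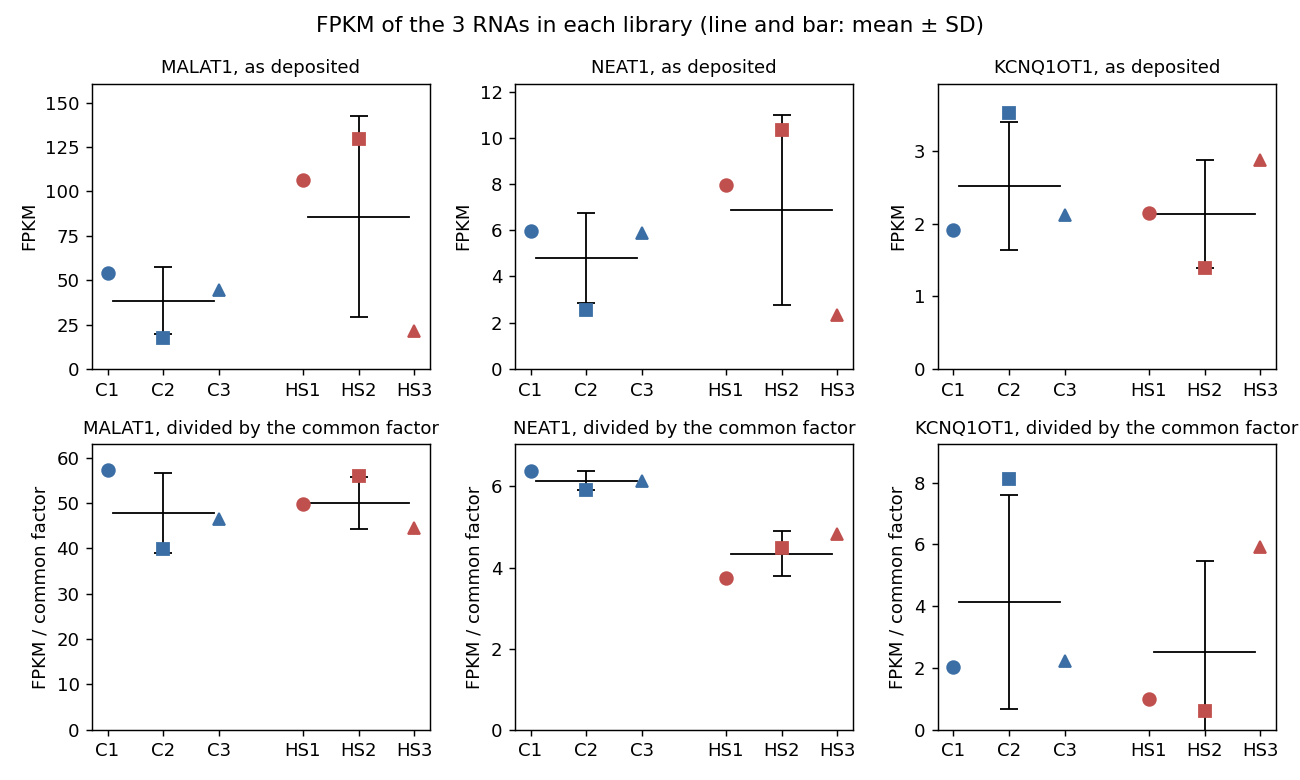
FPKM of MALAT1, NEAT1 and KCNQ1OT1 in each library (C1 to C3 control, HS1 to HS3 heat shock), as deposited in the upper panels and divided by the common factor in the lower panels, with the mean and SD of each group. As deposited all 3 RNAs overlapped between the groups; after division MALAT1 still overlapped, while NEAT1 was 5.91 to 6.38 in the controls, against 3.73 to 4.82 after heat shock. KCNQ1OT1 is shown with the assembled transcript of its interval in HS3.

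Divided by the common factor, NEAT1, the paraspeckle scaffold, was lower in every heat shock library than in every control. This difference did not pass the test across genes, and with median-of-ratios factors or values rescaled to TPM the groups overlapped. As deposited, it had 5.99, 2.57 and 5.86 FPKM in the controls, against 7.95, 10.4 and 2.35 FPKM after heat shock. Heat shock replicates 1 and 2 were highest, and control replicate 2 and heat shock replicate 3 lowest, as in the common factor. The means were 4.81 ± 1.94 and 6.88 ± 4.11 FPKM (SD, n = 3 each), and the log2 difference was 0.33 (SE 0.62, limma adjusted p = 0.779). Without heat shock replicate 3 it was 0.86, and without heat shock replicate 2 it was -0.02.

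Divided by the common factor, NEAT1 was 6.38, 5.91 and 6.13 in the controls, against 3.73, 4.47 and 4.82 after heat shock. Every heat shock library was below every control. The means were 6.14 ± 0.24 and 4.34 ± 0.56 (SD, n = 3 each). The log2 difference was -0.42 (SE 0.20, limma adjusted p = 0.913), and it stayed between -0.49 and -0.34 when single libraries were left out. On this scale 5.38% of all genes tested had all heat shock libraries below all controls, and the median of all genes was -0.21. The NEAT1 difference stood at the 33.9 percentile of all genes tested. With median-of-ratios factors in place of the common factor it was -0.19 (SE 0.25), and rescaled to TPM it was -0.29 (SE 0.39). On both of these scales the groups overlapped. Since the groups did not overlap when divided by the common factor, NEAT1 was bound to be lower within any part of the libraries. It was 6.13 against 3.73 and 4.47 in the 3 libraries with few transcripts without a strand. In the 3 with many it was 6.38 and 5.91 against 4.82, and this split adds no support. In bulk RNA, fewer cells with the RNA and less RNA per cell cannot be told apart.

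As deposited, 0 of the 3 RNAs had all heat shock libraries above all controls or all below, as 3.71% and 2.26% of all genes tested had. None was called, where a call needed an adjusted p under 0.05 and a change over 2-fold. Limma called 2 genes higher and 1 lower, 0.023% of those tested, and 268 and 209 genes reached an unadjusted p under 0.05 with such a change. The unadjusted p-values were 0.357 for MALAT1, 0.606 for NEAT1 and 0.141 for KCNQ1OT1.

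**Figure D2:**
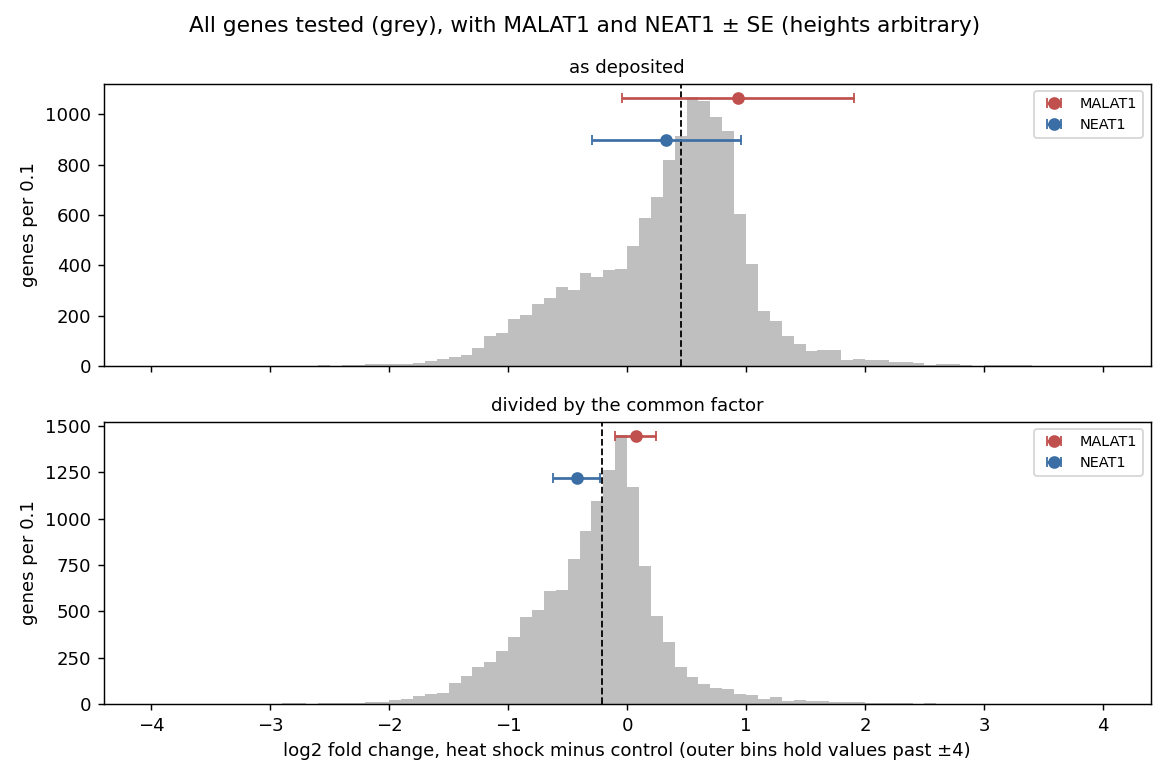
Histogram of the log2 fold change, heat shock minus control, of the 13027 genes tested, in bins of 0.1, as deposited (upper) and divided by the common factor (lower), with the median of all genes as a dashed line and MALAT1 and NEAT1 as points with their SE. MALAT1 lies to the right of the median in both panels, at 0.93 and 0.07, and NEAT1 to its left, at 0.33 and -0.42.

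NEAT1 and MALAT1 were also compared within each library. A density was used, the sum of FPKM times exon bases over a region divided by the bases of the region. The percentage of 1 density over the other does not depend on the scale of the library. The log2 ratios tested had 0.1 added to each density, so they depend on that scale in part. Over its whole length NEAT1 had 3.76%, 4.17% and 3.56% of the MALAT1 density in the controls, against 1.70%, 2.66% and 2.65% after heat shock. All heat shock libraries were below all controls. The difference of the log2 ratio was -0.73, at p = 0.1 by the exact permutation test (two-sided), the smallest that 3 against 3 libraries can give, and 0.5 after adjustment over 5 such tests. With the density of the gap between the genes subtracted it was -0.24 (exact permutation p = 0.4). Lines on the strand of the gene alone gave -0.68 (exact permutation p = 0.2), and a pseudocount of 1 gave -0.73 (exact permutation p = 0.3). Since the log2 ratios did not overlap between the groups, the difference had to be negative within any part of the libraries. It was -0.77 within those with few transcripts without a strand and -0.47 within those with many. For other genes the ratio to MALAT1 was taken from gene FPKM, which is not the density used here. Of the genes tested other than MALAT1, with NEAT1 included, 4.06% had such a ratio lower in every heat shock library than in every control.

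The same ratio over the shared part of NEAT1 alone, chosen after the data were seen, was 11.9%, 15.3% and 14.2% in the controls, against 8.30%, 9.07% and 11.7% after heat shock. These percentages again did not overlap between the groups, though control replicate 1 and heat shock replicate 3 were close. The log2 ratios tested, with the pseudocount added to each density, did overlap. Their difference was -0.52 (exact permutation p = 0.2), and this p is above the smallest that the test can give. With the density of the gap between the genes subtracted, the log2 difference was -0.40 (exact permutation p = 0.2). The percentages then overlapped as well, at 10.5% to 13.5% in the controls, against 8.30% to 10.8% after heat shock. The shared part less the gap, divided by the common factor, was 4.91 to 5.82 in the controls, against 3.73 to 4.45 after heat shock, which did not overlap.

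**Figure D3:**
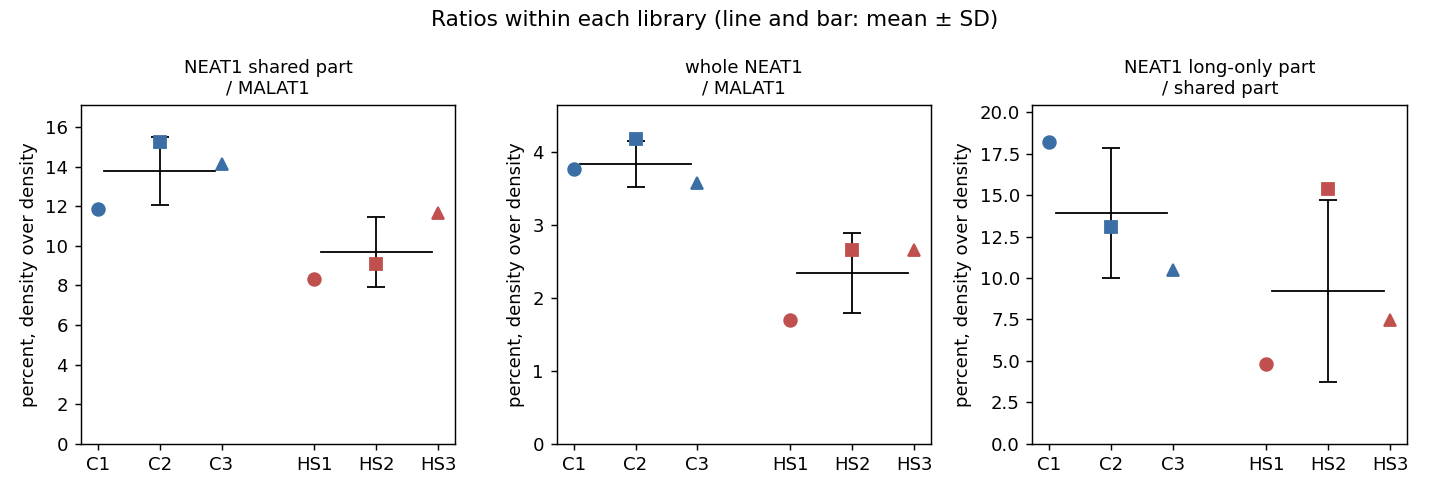
Densities set against each other within each library, in percent, with the mean and SD of each group: the shared part of NEAT1 over MALAT1, the whole of NEAT1 over MALAT1, and the long-only part of NEAT1 over its shared part. NEAT1 over MALAT1 was 3.56% to 4.17% in the controls, against 1.70% to 2.66% after heat shock, while the long-only part over the shared part overlapped between the groups.

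The long form of NEAT1 was not assembled as 1 transcript in any library. Its long-only part was covered mostly by short single-exon pieces without a strand, over 49.7%, 17.2% and 12.7% of its bases in the controls, against 8.02%, 15.6% and 11.4% after heat shock. The long-only density was 1.09, 0.336 and 0.613 in the controls, against 0.383, 1.59 and 0.176 after heat shock. The gap between NEAT1 and MALAT1, where no RNA of either gene is annotated, had a density of 0.770, 0.436 and 0.295 in the controls, against 0, 0.0413 and 0.207 after heat shock. The gap was thus denser than the long-only part in control replicate 2 and heat shock replicate 3, at 130% and 118% of it. In heat shock replicates 1 and 2 it was at 0% and 2.60%, so there the long-only pieces stood clear of the gap.

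As a percentage of the shared part, the long-only part was at 18.2%, 13.1% and 10.5% in the controls, against 4.82%, 15.4% and 7.48% after heat shock. Heat shock replicates 1 and 3 were below the controls, and heat shock replicate 2 was within them. The log2 difference was -0.60 (exact permutation p = 0.2), and it turned to 0.23 (exact permutation p = 0.9) when the density of the gap was subtracted from both parts. The value of heat shock replicate 2 rests on short pieces, the densest being 176 bases at 60.6 FPKM with a Cufflinks interval of 28.2 to 93.0. With pieces of at least 300 bases the percentages were 18.2%, 8.23% and 4.98% in the controls, against 2.76%, 4.26% and 7.48% after heat shock.

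Just past the poly(A) site of the short form, assembled transcripts on the plus strand ran through in 3 libraries. They extended 1136 bases beyond the site in control replicate 1, 834 bases in control replicate 3 and 889 bases in heat shock replicate 1, at 2.26, 2.38 and 2.24 FPKM. No such transcript was listed in the other 3 libraries.

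**Figure D4:**
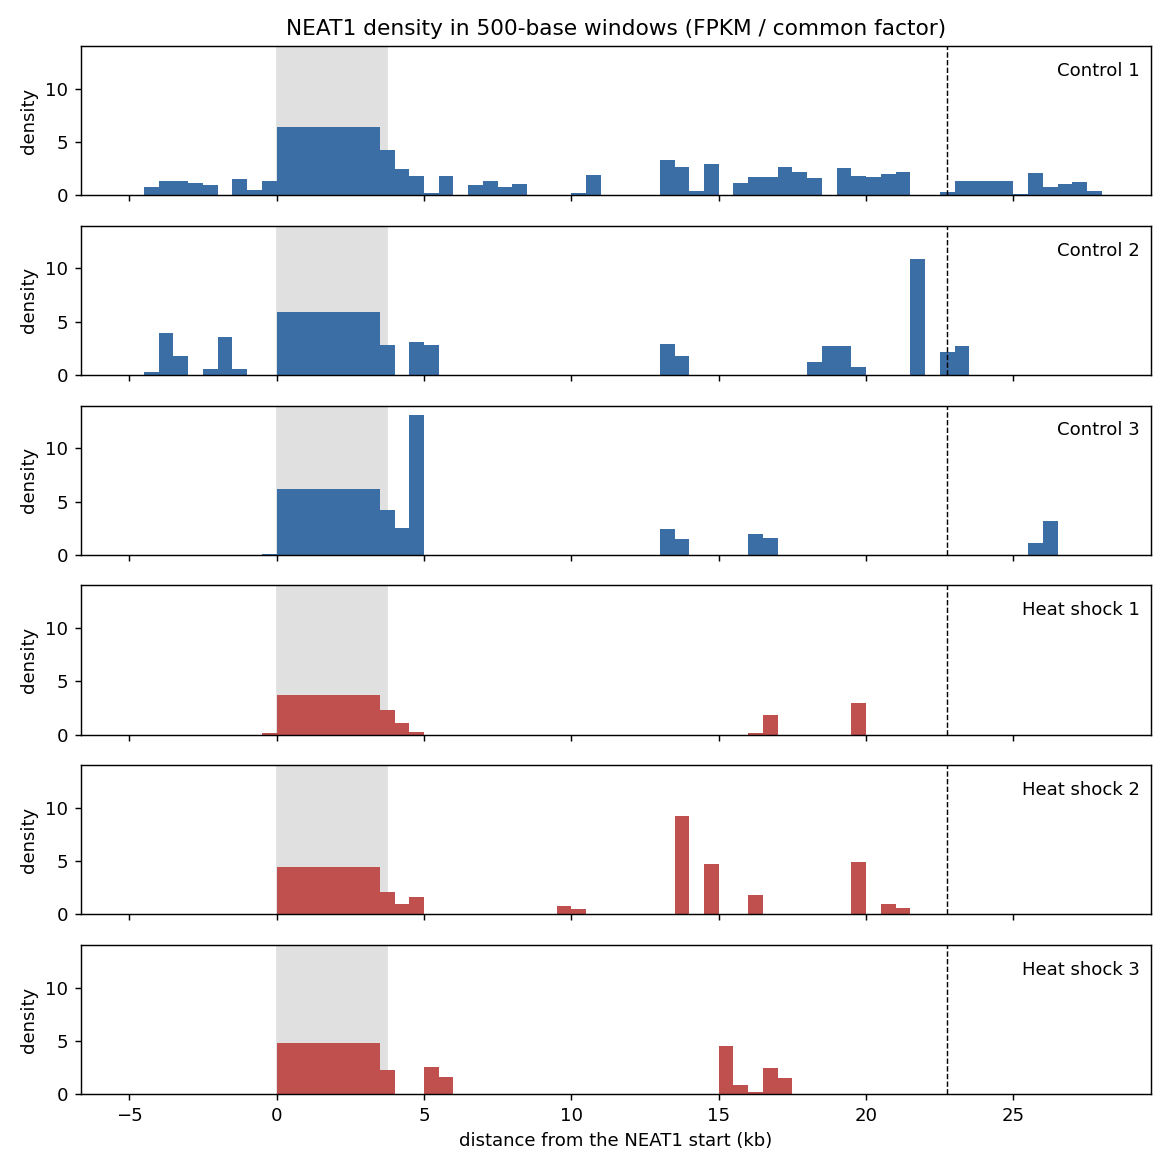
Density along NEAT1 in windows of 500 bases, divided by the common factor, against the distance from its start in kilobases, with 1 panel for each library. The grey band is the part shared by the short and the long form and the dashed line is the end of the long form. Each transcript is drawn with its 1 FPKM over all its bases, so the shared part is level by construction. It is at 5.91 to 6.38 in the controls, against 3.73 to 4.82 after heat shock, and the long-only part holds scattered pieces.

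MALAT1, annotated as unspliced, was assembled in every library also as a spliced transcript. The annotated form alone had 36.0, 14.4 and 7.55 FPKM in the controls, against 33.6, 20.7 and 3.22 FPKM after heat shock. Spliced transcripts took 33.2%, 16.7% and 83.0% of the MALAT1 FPKM in the controls, against 68.4%, 84.0% and 85.1% after heat shock. Control replicates 1 and 2 were low, and control replicate 3 was among the heat shock libraries. How Cufflinks divides fragments between an unspliced and a spliced form of the same gene is a model estimate, and these shares were not tested.

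The spliced transcripts used 8 different introns, all beginning with GT and ending with AG. The intron of 723 bases at chr11:65273134-65273856 was present in 5 libraries. The remaining library, control replicate 2, held an intron of 1366 bases at chr11:65272491-65273856, also present in heat shock replicate 2, which ends at the same acceptor. Both introns contain the A-rich stretch shown above, and with it the part of MALAT1 where RNase P is known to cut. The splice sites of these introns are shown with 15 bases on either side of the cut and the first or last 2 bases of the intron in capitals.
Donor in 5 libraries: ataatcggtttcaagGTaacgatggtgtcg
Donor in 2 libraries: aaatgaggaaaacagGTgaacaagcttttt
Shared acceptor: ccttgtctttttcAGgtaatagcctgcagc

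The other 6 introns were each found in 1 library only, at 119 to 723 bases. Transcripts with the intron of 723 bases at the end of the gene had 17.9 FPKM in control replicate 1, 36.9 in control replicate 3, with 72.6, 94.3 and 18.4 FPKM for the heat shock libraries in the order of their numbers.

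**Figure D5:**
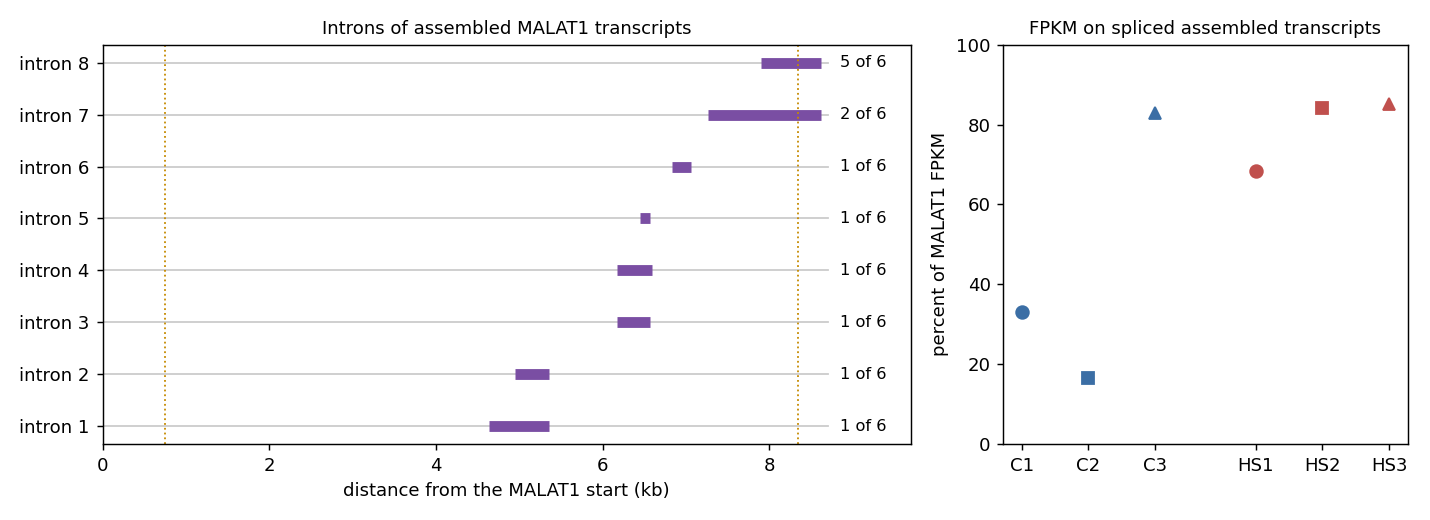
Left, the 8 introns of assembled MALAT1 transcripts (purple) against the distance from the start of the gene in kilobases, with the number of libraries that held each and the 2 copies of the A-rich stretch as dotted lines. Right, the percentage of MALAT1 FPKM on spliced transcripts in each library, from 16.7% to 85.1%, with control replicates 1 and 2 lowest.

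The difference of KCNQ1OT1 between the groups was smaller than the spread of its libraries. Counting every transcript of its interval, it had 1.91, 3.53 and 2.13 FPKM in the controls, against 2.14, 1.39 and 2.88 FPKM after heat shock, and the groups overlapped. The log2 difference of its density was -0.17 (exact permutation p = 0.7). In heat shock replicate 3 only an assembled transcript of exactly the annotated interval was listed, at 2.88 FPKM, and it was not grouped with the gene. The gene sum is therefore 0 in that library, which gives -0.82 (SE 0.52, limma adjusted p = 0.710), and -0.17 (adjusted p = 0.840) with that transcript counted. Divided by the common factor, the interval was at 2.04, 8.13 and 2.22 in the controls, against 1.01, 0.602 and 5.92 after heat shock. The gene sum without that transcript had all heat shock libraries below all controls on this scale (-1.60, SE 0.54, limma adjusted p = 0.913), which the whole interval did not. Control replicate 2 and heat shock replicate 3, which also held the most transcripts without a strand, were highest. The 5 kilobases before its start had a density of 1.55, 1.11 and 0.509 in the controls, against 0, 0.290 and 1.10 after heat shock.

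KCNQ1, the potassium channel gene on the other strand, was listed at 0 FPKM in all 6 libraries. Unspliced KCNQ1 RNA and KCNQ1OT1 cover the same bases. No source used here says that the reads kept their strand, and the part of such RNA in these values was not tested.

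The deposited table holds 1 pooled FPKM for each group and merged locus, without replicates. It was 49.7 for control and 219 for heat shock at MALAT1 (chr11:65265161-65274456), 6.15 and 18.7 at NEAT1 (chr11:65189989-65196249), and 2.96 and 4.03 at KCNQ1OT1. At MALAT1 and NEAT1 the pooled heat shock value was above every single heat shock library, of which the highest had 129.5 and 10.4 FPKM. The pooled values are therefore not means of the FPKM given above, and their scale was not tested. Among these loci, KCNQ1OT1 has the widest bounds. The KCNQ1OT1 locus, chr11:2466221-2870340, spans the whole of KCNQ1, and the NEAT1 locus stops in the first part of the long-only region.

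The proteins that bind these RNAs were described by lists. Of 26 paraspeckle proteins, 25 were tested and 0 were called in either direction by limma, with 1 at an unadjusted p under 0.05 as deposited. Their median log2 difference was 0.86 as deposited and 0.02 divided by the common factor, against 0.45 and -0.21 for all genes. SFPQ and NONO, which bind NEAT1 as a pair and are needed for paraspeckles, differed by 0.09 (SE 0.15) and -0.08 (SE 0.17) on the second scale, and PSPC1, a relative of NONO, by -0.01 (SE 0.26).

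Of 16 proteins of nuclear speckles or of MALAT1 processing and binding, all were tested and 0 were called, with 0 at an unadjusted p under 0.05 as deposited. Their median was 0.63 as deposited and -0.11 divided by the common factor. SON and SRRM2, which form the core of speckles, differed by -0.27 (SE 0.35) and -1.06 (SE 0.68) on the second scale. SRRM2 was at 128 in control replicate 3 and at 18.0 to 23.1 in the other 5 libraries, so that its difference rests on 1 library. SRRM1, a splicing coactivator, and SRSF1, an SR protein that binds MALAT1, differed by -0.10 (SE 0.38) and 0.08 (SE 0.14). SRSF2 and SRRM2 had all heat shock libraries below all controls, which 5.38% of all genes tested had.

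Of 20 other long non-coding RNAs, 14 were tested and 0 were called, with 0 at an unadjusted p under 0.05 as deposited. Their median was 0.55 as deposited and -0.19 divided by the common factor. On the second scale GAS5, a host of small nucleolar RNAs, differed by 0.26 (SE 0.31), SNHG1, another such host, by -0.43 (SE 0.64), OIP5-AS1, the RNA also called cyrano, by -0.16 (SE 0.26) and NORAD, which binds Pumilio proteins, by -0.21 (SE 0.20). DANCR and ZFAS1, hosts of small nucleolar RNAs named here because their values were seen to be apart, had all heat shock libraries above all controls, as did 2.01% of all genes tested.

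Of 13 genes beside NEAT1 and MALAT1, all were tested and 0 were called, with 0 at an unadjusted p under 0.05 as deposited. Their median was 0.39 as deposited and -0.30 divided by the common factor, against 0.45 and -0.21 for all genes. SLC25A45, FRMD8 and LTBP3 differed by -0.58 (SE 0.71), -0.30 (SE 0.42) and -0.03 (SE 0.48). Of 14 genes of the imprinted domain around KCNQ1OT1, 12 were tested, 0 were called and 1 was at an unadjusted p under 0.05 as deposited, with medians of 0.35 and -0.32. On the second scale CDKN1C, a cell cycle inhibitor, differed by -0.60 (SE 0.46), SLC67A1, listed as SLC22A18 in older annotation, by -0.41 (SE 1.14), PHLDA2 by 0.79 (SE 0.78) and NAP1L4, a histone chaperone, by -0.24 (SE 0.24). EHBP1L1, of the genes beside NEAT1 and MALAT1, had all heat shock libraries below all controls (-1.25, SE 0.51), as did 5.38% of all genes tested. CARS1, of the imprinted domain, had all of them above (0.55, SE 0.30), as did 2.01%. Both are named because their values were seen to be apart.

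Over the 6 libraries as deposited, the genes whose log2 values were most like those of MALAT1 were GLO1, RPL23A and H2AZ1 (Pearson r of 0.999 or more), but 64.3% of the 2914 genes averaging 10 FPKM or more had an r above 0.9, since all share the scale of the libraries. For NEAT1 the closest were HNRNPUL1, IFT20 and TMEM54 (r of 0.997, 0.996 and 0.995), but 57.9% of 2915 such genes had an r above 0.9. KCNQ1OT1 had no gene above 0.9, and MARS1, EIF2B4 and SNORA64 came closest, at 0.88, 0.87 and 0.81. Divided by the common factor, NEAT1 was most like RRBP1, FKBP8 and PTPRF (r of 0.973, 0.959 and 0.955), and 0.617% of genes had an r above 0.9. On that scale 0.926% of genes had an r above 0.9 with KCNQ1OT1. These correlations describe 6 points and have no test.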

How the data were processed

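Per the labels and the methods of the study, read quality was assessed with FastQC 0.10.1 and reads were cleaned with Trimmomatic 0.3.0. TopHat2 aligned them to hg19. Cufflinks 2.0.2, guided by the annotation, assembled each of the 6 libraries separately. The deposited files list an FPKM for every transcript of a library, with the interval Cufflinks computes. The authors also deposited a Cuffdiff table with 1 pooled FPKM per group, from which only those columns were used, and whose fold changes, p-values and q-values were not. How libraries were scaled is not given in the sources used here. No read counts were used, and depth is known only as coverage over FPKM.

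Gene FPKM was summed in each library over annotated and grouped assembled transcripts. Limma 3.58.1 (R 4.3.3) was fitted to log2(FPKM + 1) of the 13027 genes averaging 1 FPKM or more, using eBayes with trend and Benjamini-Hochberg adjustment; this scale understates changes of low genes. A density over a region was the sum of FPKM times exon bases divided by the bases of the region. Densities (pseudocount 1) and their ratios within a library (pseudocount 0.1) were compared by the exact permutation test, two-sided, and adjusted over 5 tests. The ratio of KCNQ1OT1 to KCNQ1 was planned and not run, because KCNQ1 was listed at 0 in all libraries and the ratio would repeat the density. Sequences were read from GRCh37, whose chromosome 11 no transcript exceeded.

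The members in full, and for each list the first 4 genes tested, its counts and any called gene, were named, with the 3 genes most like each member. Of the genes so chosen, 2 are not reported here. The members and lists were chosen with earlier results of these data known. The alternatives were another pseudocount, other size factors, TPM, other minimum FPKM, annotated transcripts alone, strand, a batch term, no trend, unadjusted p-values, a replicate block and leaving out each library. Added after the data were seen were a minimum length of 300 bases, subtraction of the gap, the shared part alone, the KCNQ1OT1 transcript of the same interval and values within libraries with few or many transcripts without a strand.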

Additional observations from a re-analysis of the deposited data

How the results depend on the processing

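With the replicate number as a block, 12 genes were higher and 5 lower. The labels do not say whether same-numbered libraries were paired. The deviations of same-numbered libraries correlated at 0.03, -0.33 and -0.38. These values show no pairing, but so few of them cannot exclude it. With the block no member was called, and the block with size factors over abundant genes gave 0 and 0. The counts of 2 higher and 1 lower became 1 and 0 with median-of-ratios factors, with TPM and without the trend, 0 and 0 with size factors over abundant genes, without a minimum FPKM and with annotated transcripts alone, 4 and 0 at a minimum of 10 FPKM, and 268 and 209 with unadjusted p. Leaving out single libraries gave 0 to 9 higher, the most without heat shock replicate 3, and 0 to 1 lower.

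No member was called under any of these settings. The MALAT1 log2 difference was -0.21 with annotated transcripts alone, for the gene and for the density, and the density gave -0.52 within the libraries with many transcripts without a strand. Divided by the common factor, MALAT1 ran from -0.050 to 0.21 when single libraries were left out, and was at -0.0092 without heat shock replicate 2. NEAT1 was at -0.19 with median-of-ratios factors, -0.42 with size factors over abundant genes, -0.29 with TPM, -0.011 with a batch term and -0.021 without heat shock replicate 2, against 0.86 without heat shock replicate 3. Its density difference of 0.14 (exact permutation p = 0.9) was -0.41 (exact permutation p = 0.1) with size factors over abundant genes, -0.34 (exact permutation p = 0.3) with TPM, and -0.54 within the libraries with many transcripts without a strand. KCNQ1OT1 was at 0.040 with annotated transcripts alone, for the gene and the density, and at 0.10 within the same libraries. The long-only part of NEAT1 against its shared part was 0.23 with the gap subtracted. The cause of these shifts was not tested.

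Leaving out single libraries gave density differences of 0.40 to 1.64 for MALAT1, -0.20 to 0.50 for NEAT1 and -0.33 to 0.029 for KCNQ1OT1, -0.93 to -0.21 for the long-only part against the shared part and -0.90 to -0.50 for NEAT1 against MALAT1. Among the genes tested, the median places were 95.6%, 64.3% and 29.7% for MALAT1, NEAT1 and KCNQ1OT1. The KCNQ1OT1 ratio to KCNQ1 was not run. With 3 libraries a group, exact tests of 1 value cannot go below 0.1, and FPKM without counts does not give the sampling error.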

Other observations

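MIR612, a microRNA gene annotated inside the long-only part of NEAT1 with a length of 100 bases, was listed at 23.7 FPKM in control replicate 2, with a Cufflinks interval of 0 to 71.0, and at 0 in the other 5 libraries. It was kept in the long-only density and left out where pieces of at least 300 bases were required.

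The 5 kilobases after the long end of NEAT1 had a density of 1.02, 0.191 and 0.403 in the controls and 0 in each heat shock library. The 5 kilobases before MALAT1 had 0.354, 0.236 and 0 in the controls and 0 in each heat shock library. These regions hold few assembled pieces, and their values were not tested.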
